A study of Mus musculus with 2 samples.

Results

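The imprinted miR-379 to miR-410 cluster of mouse chromosome 12 was examined in short RNA from embryonic liver. Its members were all miRNA genes of the deposited tables that GENCODE M21 places, on either strand, in a window of mm10 around the cluster, which gave 38 of the 1973 genes. The window runs past Mir410 and also takes in Mir3072, so the members cover chr12:109709060-109747960, or 38901 bases. The liver came from healthy B6NCrl embryos at 12.5 days, with males and females pooled and no allele or treatment named. Both libraries belong to a single group. Replicate 1 was made from 120 embryos and replicate 2 from 88. One donor identifier is shared by these pools in the labels, so the SD between them (n = 2) may be partly technical.

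The cluster lies in the Dlk1-Dio3 domain, where the long noncoding RNAs Meg3, Rian and Mirg and the miRNAs between them are transcribed from the maternal chromosome, and Dlk1, Rtl1 and Dio3 from the paternal chromosome. A miRNA is cut from a hairpin in a longer transcript, each hairpin can give a 5p and a 3p arm, and bases 2 to 8 of an arm, the seed, pair with target transcripts. In mice the cluster is known for roles in neurons, where miR-134 limits the growth of dendritic spines, and in the metabolic adaptation of newborns, for which the liver is a main organ.

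The RefSeq table for GRCm38.p6 held mature sequences for 37 of the 38 members, 69 arms in all, and both arms for 32 members. The arms below belong to the genes with the highest levels. They are written 5′ to 3′ with the seed in capitals, and the deposited gene counts do not say which arm was sequenced.
miR-409-5p: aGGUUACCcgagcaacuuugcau
miR-409-3p: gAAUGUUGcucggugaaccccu
miR-411-5p: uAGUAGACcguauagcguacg
miR-411-3p: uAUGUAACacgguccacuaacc
miR-487b-5p: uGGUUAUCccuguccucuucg
miR-369-5p: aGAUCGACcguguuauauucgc
miR-369-3p: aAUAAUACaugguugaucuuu
miR-379-5p: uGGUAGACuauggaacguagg
miR-379-3p: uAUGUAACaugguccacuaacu
miR-154-5p: uAGGUUAUccguguugccuucg
miR-154-3p: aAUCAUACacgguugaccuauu

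The 69 arms carried 64 distinct seeds. Among these arms 5 seeds occurred in 2 members each, and 9 members had such a seed. The table held 1 arm for Mir376c, Mir487b, Mir539, Mir485 and Mir453 and none for Gm27379, and seeds of other arms were not counted. The arms that share a seed with those of miR-379, or with each other, are printed here because the levels below are also summed by seed. miR-379-5p shares its seed with miR-1193-5p, and miR-379-3p with miR-411-3p.
miR-1193-5p: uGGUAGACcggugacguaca
miR-494-5p: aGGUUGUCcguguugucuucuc
miR-410-5p: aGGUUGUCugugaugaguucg
miR-453: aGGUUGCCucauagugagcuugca
miR-496a-5p: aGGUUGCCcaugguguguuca
miR-1197-5p: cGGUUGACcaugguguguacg
miR-758-5p: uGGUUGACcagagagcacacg

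Many other seeds differed by a single base. Counted from 1 at the 5′ end of the miRNA, miR-379-5p and miR-411-5p differ by G2A, miR-379-5p and miR-412-5p by A5C, miR-300-3p and miR-381-3p by G4A, miR-154-3p and miR-369-3p by C4A, and miR-487b-5p and miR-409-5p by U7C. The arms of these pairs that are not printed above follow.
miR-412-5p: uGGUCGACcagcuggaaaguaau
miR-300-3p: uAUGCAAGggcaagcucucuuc
miR-381-3p: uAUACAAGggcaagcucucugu
The seed pattern GGUNGAC, with any base at N, was written down after the sequences were seen. It occupied bases 2 to 8 of 5 of the 69 arms (7.25%), those of miR-379, miR-1193, miR-1197, miR-758 and miR-412. Among 1606 other mouse arms in the table it occurred in 1 (0.0623%), miR-7672-5p. GGUUGNC, chosen in the same way and overlapping the first pattern at GGUUGAC, stood there in 6 cluster arms (8.70%) and in 0 of the 1606 others. Seeds were read on the mature strand only. An A was the 5′ base of 37.7% of the cluster arms and of 25.0% of the others, and a U of 43.5% and 40.8%. The median GC content was 47.6% in the cluster arms and 52.4% in the others.

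The libraries held 11057424 and 11013976 reads (replicates 1 and 2), of which 68.8% and 67.9% were not counted on the sense strand of a listed gene. The sense counts came to 3447858 and 3534816. Levels are counts per 1000000 (CPM) of 3604486 and 3688596 counts, in which the opposite-strand counts of the 4 minus-strand members take the place of their sense counts, and for a gene with 0 counts the limit of 3 counts corresponds to 0.832 and 0.813 CPM. These limits, and all intervals below, cover counting error only. Of the marker miRNAs, the hepatocyte miRNA Mir122 stood at 58266 and 45163 CPM and the endothelial Mir126a at 65826 and 65323 CPM. The 3 erythroid miRNAs summed to 1.62% and 3.59% of the counts, with Mir451a at 11882 and 31141 CPM, Mir144 at 3157 and 3874 CPM and Mir486 at 1152 and 855 CPM. Their differences between the libraries thus went in both directions. The 6 mesenchyme miRNAs, led by Mir143, held 2.28% and 2.47% of the counts. Of the neural list, 8 of 9 members were matched and summed to 0.0229% and 0.0217%, with 4 at 0 counts in both libraries, the 3 Mir124a genes among them. The muscle list, 6 of 7 matched, summed to 0.0400% and 0.0644%, with 3 at 0 counts. Reads aligned to several places were counted on no gene, which can lower genes with several copies. Such genes stand in the neural (Mir124a, Mir9), muscle (Mir1a, Mir133a) and mesenchyme (Mir199a) lists. Their counts of 0 therefore do not show that a miRNA was absent. The part that any of these cell types has in the cluster's level was not tested.

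Among the reads counted on a gene, the cluster took a large share in this liver. Its 38 genes took 569516 and 568165 counts, which is 15.8% and 15.4% of all miRNA gene counts (15.6% ± 0.281, SD, n = 2). At least 10 CPM in both libraries was reached by 33 members (86.8%), against 301 of all 1973 genes (15.3%). At 1000 CPM the counts were 19 members (50%) and 99 genes (5.02%). Of the 50 highest miRNA genes by these counts 10 were members, and of the 100 highest 19. Reads aligned to several places, 40.8% and 41.9% of aligned reads, are missing, so miRNAs with several gene copies can rank too low. Opposite-strand counts were used for minus-strand members only. With the counts of both strands for all genes the share was 14.7%. In bulk tissue, fewer cells of a type and less RNA per cell cannot be told apart.

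The members differed greatly among themselves, although their genes lie close together. The 5 highest held 58.4% and 59.3% of the cluster's counts (58.8% ± 0.626), the 10 highest 81.8% ± 0.144 and the 20 highest 97.2% ± 0.119. The same 10 members were highest in both libraries. The median member stood at 1201 CPM.

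**Figure D1:**
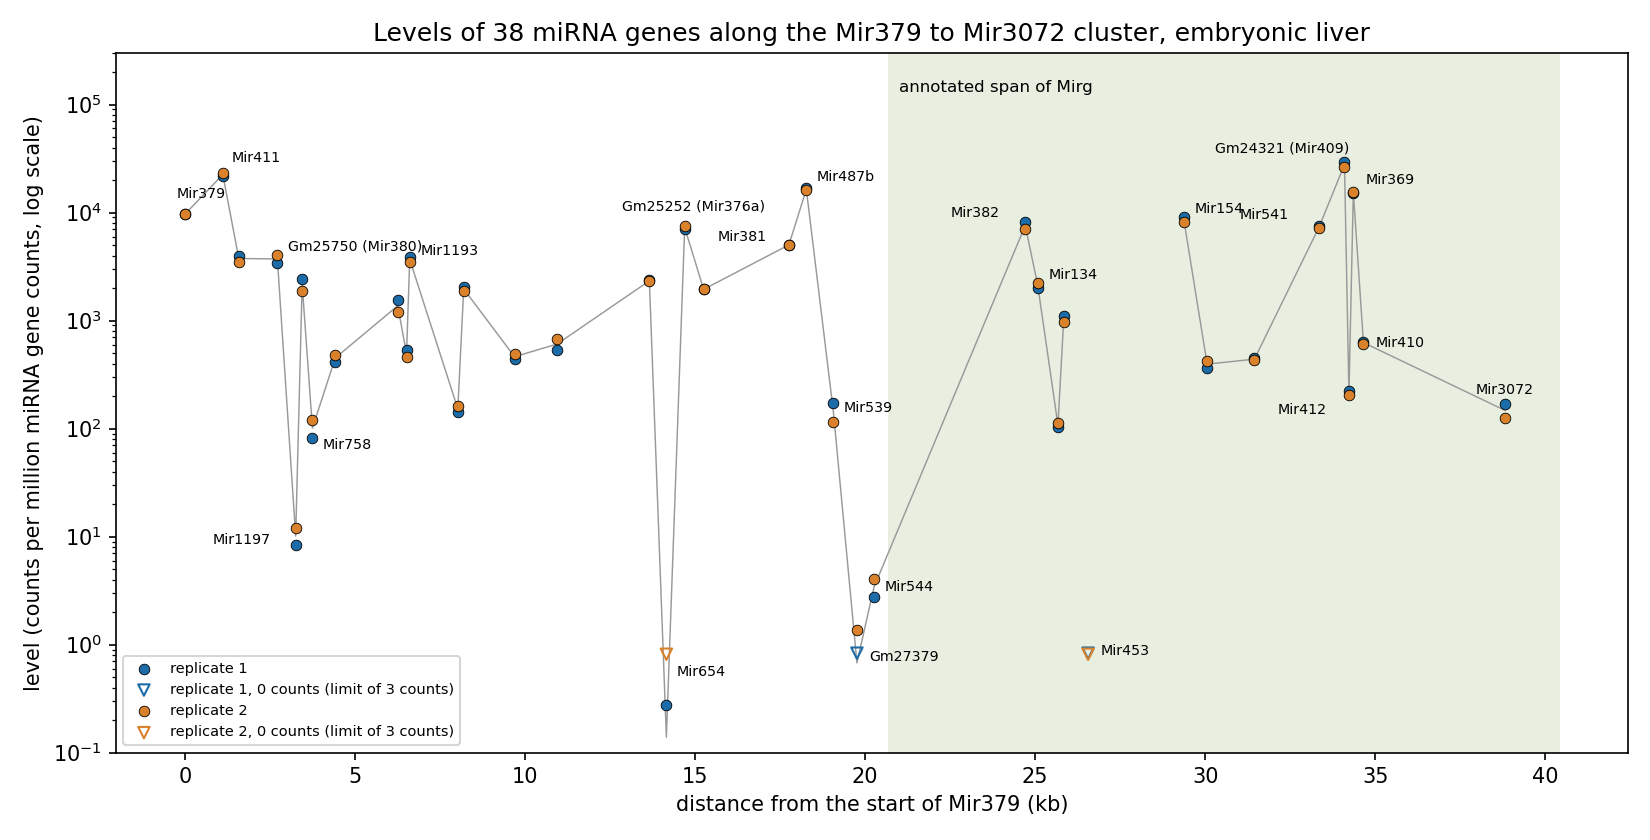
Level of each of the 38 members in each library (CPM, log scale) against the distance of its start from that of Mir379 (kb), with open triangles at the limit of 3 counts for a library at 0 and a grey line through the means, broken where a mean is 0. The shaded area is the annotated span of Mirg, and levels rise and fall between close neighbours throughout, from 27838 CPM for Gm24321 to 0 counts for Mir453.

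The highest member was listed as Gm24321 (ENSMUSG00000093089), a minus-strand gene at chr12:109743158-109743237. It stood at 29086 and 26589 CPM, 17.8% of the cluster and rank 8 among all miRNA genes. By the rule its counts are those of the opposite strand, where Mir409 lies, so they are reads from the strand of miR-409. The other minus-strand identifiers likewise stood opposite a plus-strand miRNA gene: Gm25252 opposite Mir376a, Mir299b opposite Mir299a and Gm25750 opposite Mir380. The 18 leading bases of a mature miR-299a arm also occur on the other strand of its own hairpin, so for Mir299b the strands are less clearly separated. The 4 took 156660 and 153806 counts, 27.3% ± 0.309 of the cluster. Mir409, Mir376a, Mir299a and Mir380 are not analysed here under identifiers of their own, nor are Mir376b and Gm44322, the rest of the 44 miRNA genes that GENCODE M21 places in the window. The 34 plus-strand members had 0 opposite-strand counts in both libraries.

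Next came Mir411 (chr12:109710175-109710256) at 21595 and 23356 CPM. The hairpins of Mir411 and Mir758 share a run of 20 bases, as do those of Mir376c and Mir487b with Mir376b, and reads from such a run that aligned to several places are missing from these counts, so the levels of these genes are uncertain. These 4 members held 26.5% ± 1.02 of the cluster. Among the arms in the table, the 18 leading bases of the Mir376c arm also occur in another annotated hairpin, that of Mir376b. The other arm of Mir376c and of Mir487b was not searched.

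Mir487b (chr12:109727333-109727414) followed with 16719 and 16174 CPM, and Mir369 (chr12:109743418-109743496) with 15242 and 15537 CPM. Their values did not overlap between the libraries, though Mir487b was only 1.07 ± 0.0395 times as high. The fifth, Mir379 (chr12:109709060-109709125), stood at 9627 and 9661 CPM and varied less between libraries than the members next to it in rank.

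Mir154 stood at 9073 and 8170 CPM, Mir382 at 8192 and 6967 CPM, and Mir541 at 7519 and 7122 CPM. Gm25252, which stands for miR-376a, a miRNA known to be edited from adenosine to inosine in other tissues, was at 6984 and 7555 CPM. Each of these 4 overlapped with its neighbour in rank when values were compared across the libraries. The order of Mir382, Mir541 and Gm25252 changed from one library to the other, but Mir154 was the highest of the 4 in both. Mir381 lay below all of them at 5030 and 5010 CPM. Over the whole cluster, 16 of the 34 neighbouring ranks among members with at least 10 counts had overlapping values.

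Mir299b stood at 4000 and 3511 CPM, Gm25750 at 3392 and 4043 CPM and Mir1193 at 3856 and 3501 CPM, and these 3 also overlapped. The members from Mir376c down to Mir485 lay between 2332 and 1031 CPM on average and included Mir134, the dendritic spine miRNA, at 2000 and 2224 CPM. A further 13 members, from Mir410 at 638 and 613 CPM to Mir758 at 81.8 and 120.1 CPM, made up the lower part of the detected range.

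At the bottom were 5 members that did not reach 10 CPM in both libraries. Mir1197 had 30 and 44 counts (8.32 and 11.9 CPM), and Mir544 10 and 15 counts. Gm27379 had 0 and 5, Mir654 had 1 and 0, and Mir453 had 0 in both. Mir1197 lay 3.257 kb into the cluster between Gm25750 and Mir323, which stood at 3717 and 2160 CPM on average. Mir654 lay between Mir376c and Gm25252, both above 2000 CPM.

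**Figure D2:**
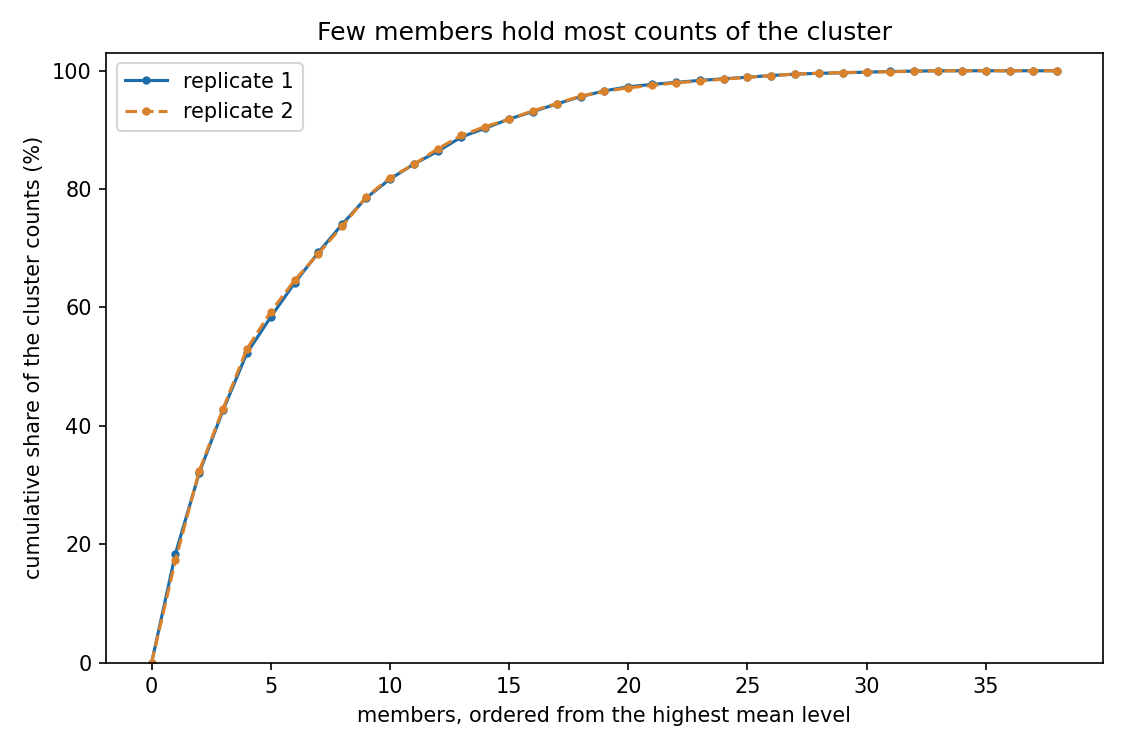
Cumulative share of the cluster's counts (%) over the members ordered from the highest mean level, with 1 line for each library. The lines of the libraries nearly coincide, and pass 58.4% and 59.3% at 5 members and 97.3% and 97.1% at 20.

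Along the chromosome, 24 members lay before the annotated Mirg gene, which starts 20.704 kb from Mir379, and held 53.1% and 54.9% of the cluster's counts. The 14 within Mirg held 46.9% and 45.1%. Of the 14, 9 overlapped an exon of Mirg (17.7% ± 0.104 of the cluster) and 5 lay in an intron (28.3% ± 1.18), which include Gm24321. The median member stood at 1658 CPM before Mirg and at 828 CPM within it.

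Neighbours along the cluster often differed in level by several fold. Successive members were 20 to 4368 bases apart, with a median gap of 590. Gaps and neighbours were taken between members only, so Mir376b and Gm44322, which are not among them, were passed over. Among the 33 members detected at 10 CPM, the median absolute log2 difference in level was 2.12 over 32 neighbouring pairs and 2.35 over all 528 pairs. Over the 12 neighbours less than 500 bases apart it was 3.08. These pairs share members, so no test was made.

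A steep step between hairpins less than 100 bases apart was that around Mir412 (chr12:109743289-109743368), at 224 and 205 CPM. Gm24321 ends 51 bases before it and stood 129.9 and 129.7 times as high. Mir369 begins 49 bases after it and stood 68.1 and 75.8 times as high. Mir369 in turn was 23.9 and 25.4 times as high as Mir410, the next member.

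Similar steps stood elsewhere in the cluster. Mir1193 lies 20 bases after Mir679 and was 7.29 and 7.68 times as high. Mir487b was 97.2 and 142 times as high as Mir539, the next member. At the start of the cluster the step was small, with Mir411 at 2.24 and 2.42 times Mir379.

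By seed, and among the arms in the RefSeq table only, the largest sum was that of the seed shared by miR-379-3p and miR-411-3p. Their genes added to 31223 and 33017 CPM, 20.6% of the cluster. The miR-379-5p and miR-1193-5p seed added to 13483 and 13163 CPM (8.54%), with Mir379 counted in both sums. These sums are of gene counts, which also hold reads of the other arm and lack reads that aligned to several places.

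Among the arms in the RefSeq table, the other shared seeds belonged to lower genes. Mir494 stood at 1541 and 1201 CPM and Mir410 at 638 and 613 CPM, which add to 1.28% of the cluster. Mir496a stood at 365 and 425 CPM, while Mir453, which has the same seed, had no count. Mir758 and Mir1197 together came to 90.2 and 132 CPM. In each of these groups 1 gene was higher than the other in both libraries.

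**Figure D3:**
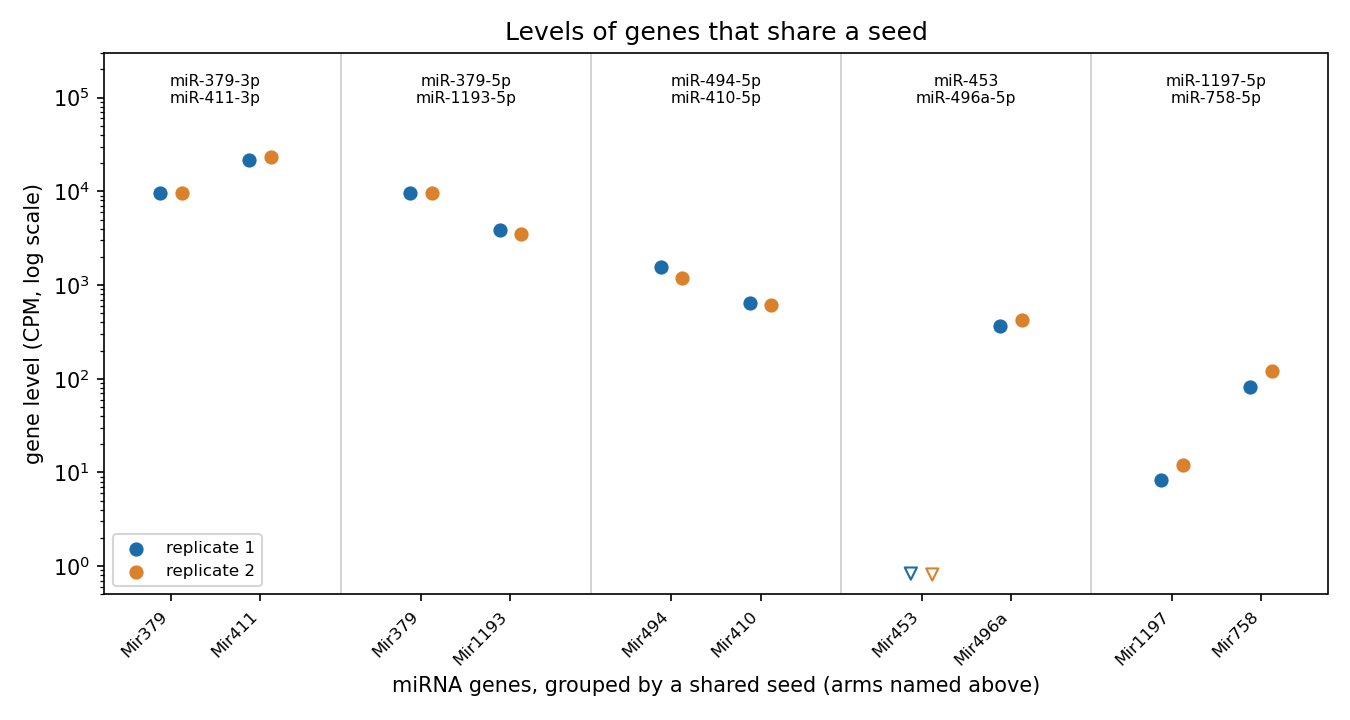
Gene level (CPM, log scale) of the 9 members in the 5 groups with a shared seed, 1 point for each library, with open triangles at the limit of 3 counts where a library had 0 counts. The sum of a group's levels is lower from left to right, from 32120 CPM for the miR-379-3p and miR-411-3p group to 111 CPM for the miR-1197-5p and miR-758-5p group, and the partners in a group do not overlap.

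The GGUNGAC genes ranged from Mir379 to Mir1197 and summed to 13648 ± 211 CPM. The GGUUGNC genes ranged from Mir494 to Mir453 and summed to 2503 ± 186 CPM.

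Some seeds of the cluster also occur in miRNAs elsewhere in the genome, and the other genes' levels are given beside them because they carry the same seed. The seed of miR-329-3p is also that of miR-362-3p, of miR-1193-3p that of miR-370-5p, which lies in the same imprinted domain, and of miR-412-3p that of miR-1983.
miR-329-3p: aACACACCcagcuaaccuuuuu
miR-362-3p: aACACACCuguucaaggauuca
miR-1193-3p: uAGGUCACccguuuuacuauc
miR-370-5p: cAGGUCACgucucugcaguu
miR-412-3p: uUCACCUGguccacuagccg
miR-1983: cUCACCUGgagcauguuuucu
Mir329 stood at 416 and 484 CPM, above Mir362 at 65.8 and 97.1 CPM. Mir1193 stood above Mir370, which was at 1350 and 1157 CPM. Mir412 was below Mir1983, which stood at 3230 and 2632 CPM. The sequences differ beyond the seed in each pair.

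The libraries were then compared gene by gene, to see how far levels repeat between the pools. Each gene with at least 10 counts over both entered an exact binomial test, two-sided, in which TMM factors set the library sizes. P-values were adjusted by Benjamini-Hochberg over 467 genes and called at 0.05. The test compares 2 libraries, not conditions, and allows for counting error only. Of 35 members tested, 25 differed (71.4%), 13 higher and 12 lower in replicate 2, and 10 were not called. Over all genes the share called was 41.1%, with 22.7% higher and 18.4% lower.

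Among genes with 1000 counts or more over both libraries, 24 of 31 members (77.4%) and 132 of 167 other genes (79.0%) were called. With library sizes from total counts 10 members were higher and 14 lower, so the split between directions depends on the scaling. Once a spread between samples was allowed for in edgeR's negative binomial exact test, 0 members were called, with a coefficient of variation of 0.1 (2 at an unadjusted p under 0.05) or with 0.162, estimated from the same libraries (0 at that p). The same test called 2.57% and 1.07% of all genes. The 0.1 was assumed, and the 0.162 came from the difference between the same libraries that were then compared. Few calls therefore follow from the way the test was set up, and 0 calls do not show that members are equal.

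Levels repeated closely between the pools. The median log2 ratio, replicate 2 over replicate 1, was 0.03 in the members and 0.02 over all genes tested. Among members with at least 100 counts, 24 of 33 (72.7%) lay within 1.2-fold and 32 within 1.5-fold. For 260 other genes with at least 100 counts, 169 (65%) lay within 1.2-fold. More of the members had deep counts. With at least 1000 counts, 23 of 31 members and 118 of 167 other genes lay within 1.2-fold. The SD of the log2 ratio at 100 counts was 0.23 over the members and 0.37 over the others. At 1000 counts it was 0.21 and 0.30. Across the 38 members the log2 levels of the libraries gave Pearson's r of 0.997 and Spearman's rho of 0.992, a description over genes, which are not independent replicates.

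**Figure D4:**
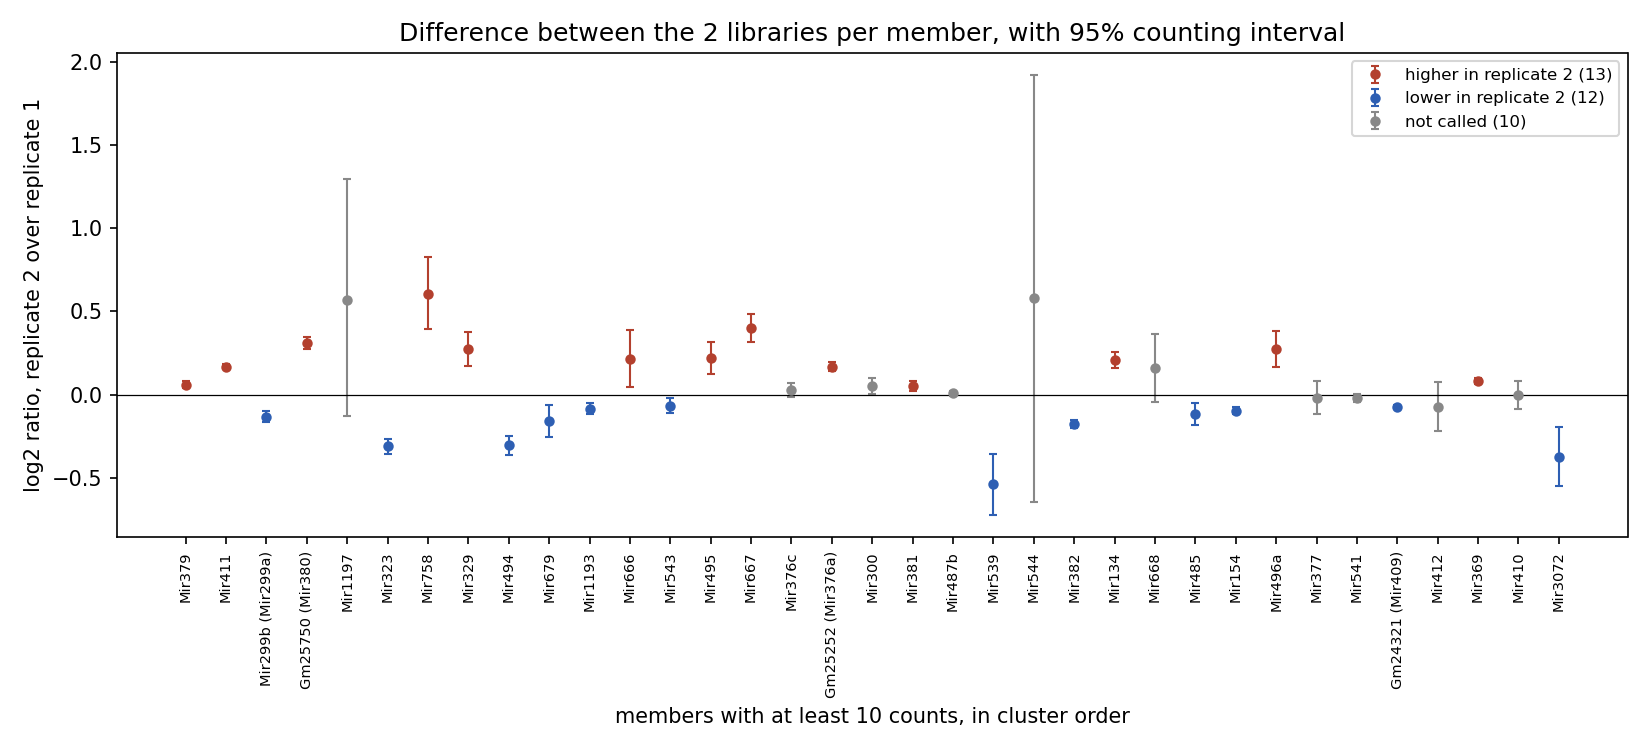
Log2 ratio of replicate 2 over replicate 1 for the 35 members with at least 10 counts, in cluster order, with exact 95% intervals for counting error. Of these, 13 lie above 0 and 12 below it by the exact binomial test, 10 are not called, and the widest intervals belong to Mir544 and Mir1197.

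The highest ratio among members with at least 100 counts was that of Mir758, with 295 and 443 counts, a log2 ratio of 0.61 (95% interval 0.39 to 0.83). Mir667, with 1926 and 2503 counts, was at 0.40 (0.31 to 0.49), and Gm25750, with 12225 and 14914, at 0.31 (0.27 to 0.34). The lowest ratio was that of Mir539, with 620 and 420 counts, at -0.54 (-0.72 to -0.36). Mir3072, with 609 and 463 counts, was at -0.37 (-0.55 to -0.20), and Mir323, with 8768 and 6959, at -0.31 (-0.36 to -0.27). For the 2 highest members, Gm24321 was at -0.07 (-0.09 to -0.06) and Mir411 at 0.17 (0.15 to 0.18).

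Higher and lower members were mixed along the cluster. Before Mirg, 10 of 22 tested members were higher and 7 lower. Within Mirg, 3 of 13 were higher and 5 lower. Over all genes tested 22.7% were higher and 18.4% lower by this exact binomial test, and by the negative binomial exact test 0 members were called in either part.

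The miRNA genes that lie before the cluster in the same domain were taken from a list, of which 18 of 20 were matched. Together they held 5.70% ± 0.0197 of the miRNA gene counts, and 15 reached 10 CPM in both libraries. Only sense counts were used for them, also for the minus-strand gene Mir3071. Their share was thus not measured in the same way as that of the cluster. Mir431, at 19222 and 18735 CPM, and Mir127, which lies opposite the paternally expressed Rtl1 and is known to target its transcript, at 16477 and 16949 CPM, were the highest. Mir337 followed at 5005 and 5133 CPM. Between the libraries 12 of 16 tested (75%) were called by the exact binomial test, 7 higher and 5 lower, against 41.1% of all genes. Of the genes outside the cluster with 1000 counts or more, 79.0% were called, and calls depend on depth. By edgeR's negative binomial exact test 0 were called with either coefficient of variation, and 0 had an unadjusted p under 0.05. All 15 with at least 100 counts lay within 1.5-fold. Mir432 had 0 counts in both.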

How the data were processed

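Short RNA was sequenced from 2 pools of embryonic liver. The authors deposited raw read counts per miRNA gene, on both strands, the sense strand and the opposite strand; per the file headers, mm10 and GENCODE M4 were used. Neither these headers nor the labels name the aligner or the counter. Reads aligned to several places, 40.8% and 41.9% of aligned reads, were counted on no gene. Names and positions came from GENCODE M21, which held 1894 of 1973 identifiers, and sequences from RefSeq.

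Sense counts were used for plus-strand members and opposite-strand counts for minus-strand members, scaled to CPM. The binomial test used scipy 1.17.1 with TMM factors from edgeR 4.0.16, and 0.5 counts were added for ratios. With 1 library on each side no quasi-likelihood test could be run. The binomial test alone was tried on simulated counts, with counting error only and without TMM factors. It called 54%, 55.3%, 67.3% and 95.7% of genes changed 1.2-, 1.5-, 2- and 4-fold, in the right direction. Of unchanged genes it called 1.45%. The negative binomial test was not simulated. Alternatives were other scalings (DESeq2 1.42.0 size factors, total counts), filters, strands, thresholds and left-out libraries or members. Named were the 10 highest and 5 lowest members, minus-strand members, members with a shared seed and the 3 largest ratios in each direction; Mir134, Mir412 and other neighbours, and the comparison of seeds outside, were chosen after their values were seen. Members and lists were chosen with earlier results of these data known.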

Additional observations from a re-analysis of the deposited data

Results flagged for a closer look

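Reads on the annotated strand of the minus-strand gene Mir299b, which the levels above do not use, came to 32 counts in replicate 1 and 26 in replicate 2. Both are above the limit of 3 counts that a count of 0 allows, and the other minus-strand members had 0. On the opposite strand the same gene took 14419 and 12950 counts. Part of the mature sequence of miR-299a, its 18 leading bases, also occurs on the other strand of its own hairpin; its part in these counts was not tested.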

How the results depend on the processing

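The cluster's share of miRNA gene counts moved from 15.6% to 14.7% with the counts of both strands, to 11.8% with the sense column for minus-strand members, to 5.15% of all reads, to 12.8% without Gm24321 and, in an alternative chosen after seeing the data, to 11.5% without the 4 members with a shared run of 20 bases. It was 15.4% to 15.8% in single libraries. The share of the 5 highest members was 59.7% without Mir376c and 60.2% without the 4, and 58.4% to 59.3% in single libraries. Members called numbered 0 by the negative binomial test with either coefficient of variation, against 25. The median log2 ratio was -0.028 with total counts, which shift all genes by -0.06. The ratio of Mir381 turned to -0.0059 with total counts, and that of Mir487b to -0.048 with total counts and -0.015 with DESeq2 size factors. The count at 10 CPM stayed within 1.5 times under the thresholds, strands and omissions tried. Depth limits Mir1197, Mir544, Gm27379, Mir654 and Mir453. No paired analysis was possible because the labels give a single group.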

Other observations

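Levels of the 33 members detected at 10 CPM had weak rank correlations with features of their hairpins, given as descriptions of points that share libraries and a locus. Spearman's rho of the log2 mean level was -0.10 with position along the cluster and -0.27 with the GC content of the hairpin. It was 0.24 with the predicted folding energy of the hairpin per base and 0.05 with the length of the listed gene. For the 4 minus-strand members, GC content and energy are those of the opposite plus-strand gene. Pearson's r was -0.05, -0.34, 0.21 and 0.09 for the same features.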
